A study of Mus musculus with 2 samples.

Results

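In the RNAlater library, 1157 of the 3486 barcodes with at least 200 genes and at most 8000 UMIs had over 10% of their UMIs on mitochondrial genes. A UMI (unique molecular identifier) marks 1 captured RNA molecule, and the mitochondrial genes are the 37 symbols that start with mt-. The study's methods leave out barcodes over this limit, so these 1157 are droplets that stand outside its clusters. They were chosen by a measured value, the mitochondrial share itself. That share is therefore given as a description, and every comparison below leaves the mt- UMIs out of the totals.

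The library was made from the stria vascularis of CBA/J mice at postnatal day 30, microdissected from the cochlea, kept in RNAlater and then lysed to release nuclei. Its sample label gives 10 mice, pooled, and the methods give 6. A second library, MethFix, held nuclei of the same tissue, strain and age that were fixed in methanol after isolation, from a pool of 5 to 6 mice by its label. With 1 library for each preservation method there is no replicate, so no test and no p-value is given. All intervals are exact 95% intervals. Those of levels and ratios cover the counting error of UMIs only. Intervals of shares of barcodes take barcodes as independent draws, and those of medians come from ranked barcodes or genes. None covers the spread between mice or libraries.

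The stria vascularis is the epithelium of the cochlear wall that makes the potassium-rich endolymph. Its marginal cells carry the Na,K-ATPase, the Slc12a2 cotransporter and the Kcnq1/Kcne1 potassium channel, and hold many mitochondria. Its intermediate cells are melanocytes, and its basal cells are joined by Cldn11 tight junctions. Mitochondrial RNA is made and kept in the mitochondria of the cytoplasm. Most ribosomal protein and metabolic mRNAs are found in the cytosol, whereas RNAs such as Malat1 and Xist stay in the nucleus. A droplet that holds a bare nucleus is known for few mitochondrial UMIs, many UMIs from unspliced transcripts of long genes, and much Malat1.

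The RNAlater matrix holds 3868 barcodes and 17681824 UMIs, and 3859 barcodes passed 200 genes. Of the 3868 barcodes, 3323 occur in the MethFix matrix as well, and so the barcodes were divided into those found in both files and those found only in the RNAlater file. Among barcodes in both files, 656 of 2949 were over the limit (22.2%, 20.8 to 23.8%). Among barcodes only in the RNAlater file, 501 of 537 were over it (93.3%, 90.8 to 95.3%). In MethFix the same limits put 746 of 4342 barcodes over (17.2%), and among barcodes only in the MethFix file 69 of 1226 (5.63%). The shared barcodes carry nearly the same values in both files. Of the 656 members in both files, 655 were over the limit in MethFix too, with a median mitochondrial share of 51.0% in RNAlater and 51.7% in MethFix. They are therefore no second sample of the members, and the barcodes found in 1 file are reported apart throughout. Whether the RNA of a shared barcode came from the RNAlater or the MethFix nuclei cannot be told from these values. Results for shared barcodes are thus not to be read as traits of tissue kept in RNAlater.

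The members were shallow, with a median of 1912 UMIs in all, against 4702 at or under the limit. Their median share was 50.3% (quartiles 40.5 to 56.5%, highest 82.8%), against 0.395% at or under the limit. Outside the mt- genes they had a median of 982 UMIs (quartiles 647 to 1513), against 4649 (3022 to 6110) at or under the limit. The barcodes in both files were deeper than those only in RNAlater, with medians of 1304 and 673 such UMIs, while their mitochondrial shares were alike, 51.0% and 49.1%. At equal depth the members did not hold fewer genes. After thinning to 500 UMIs outside mt- genes, members had a median of 401 genes (400 to 402), against 379 (378 to 380), with 139 members too shallow to enter and no barcode under the limit left out. Before thinning the medians were 706 and 2147 genes.

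**Figure D1:**
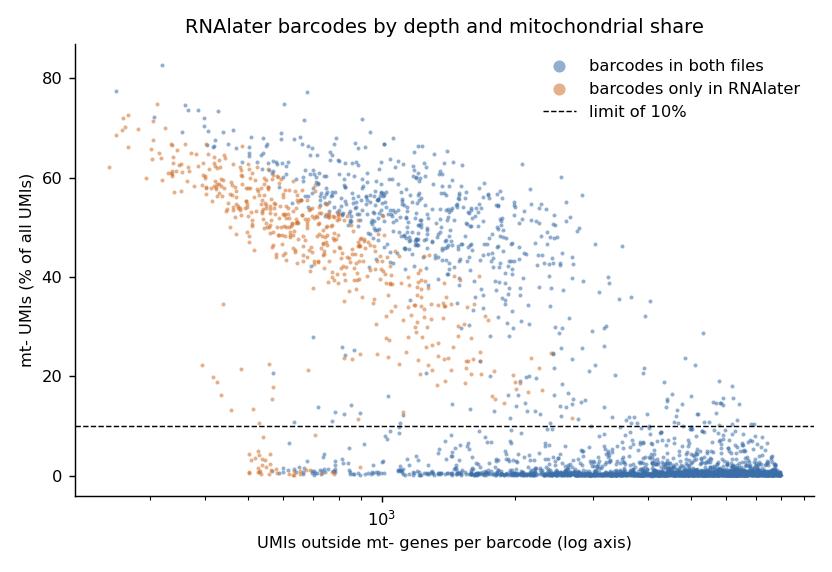
Each point is 1 of 3486 RNAlater barcodes, with UMIs outside mt- genes on a log axis and the percent of UMIs on mt- genes, coloured by whether the barcode is in both files or only in RNAlater; the dashed line is the 10% limit. Most barcodes lie near 0% or between 40 and 60%, and over the limit the barcodes only in RNAlater, with a median of 673 UMIs, lie left of those in both files, with 1304.

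Few barcodes lay close to the limit. In the range from 8 to 10% there were 37, with a median of 4246 UMIs outside mt- genes, and from 10 to 12% there were 25, with a median of 3664. The 98 barcodes between 10 and 20% had a median of 2554.5, the 695 between 40 and 60% had 922, and the 178 above 60% had 544.5. UMIs outside mt- genes were thus fewer where the share was higher. These UMIs are part of the total that sets the share, and that total was held to at most 8000. The fall is therefore partly set by the choice of members. The part of depth in the gene ratios was not tested, although the alternative with every barcode thinned to 500 UMIs is given in the closing section.

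The mitochondrial RNA itself had nearly the same make-up on both sides of the limit. The large ribosomal RNA mt-Rnr2 gave 38.6% of the members' mt- UMIs and 42.6% of those at or under the limit. The complex I subunit mt-Nd2 gave 13.8% and 12.6%, mt-Cytb of complex III gave 13.0% and 11.1%, mt-Nd4 gave 11.6% and 10.7%, and mt-Nd1 gave 9.09% and 8.60%. The small ribosomal RNA mt-Rnr1 gave 6.98% and 7.43%, mt-Co1 of complex IV 2.77% and 2.73%, and mt-Nd5 2.41% and 2.50%. The order of these 8 genes was the same in members found in both files and in members only in RNAlater. The remaining protein genes were each under 1.1% of mt- UMIs in both groups. mt-Atp8 gave 0.945% and 1.08% and mt-Atp6 0.405% and 0.331%, while mt-Co3, mt-Nd4l, mt-Nd6 and mt-Co2 each gave under 0.1%. The 22 transfer RNA genes together had 934 UMIs in the members. mt-Nd3 was almost uncounted, at 94 UMIs in the 1157 members and 9 at or under the limit.

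A near-identical copy of mt-Nd3 in the nuclear genome had far more UMIs. Gm28438, an unprocessed pseudogene of 345 bases at chr1:24612775-24613119 on the minus strand (GRCm38), had 11335 UMIs in the members and 797 at or under the limit. Its GENCODE transcript aligns over 345 bases with that of mt-Nd3 at chrM:9459-9806, with 1 mismatch (99.7% identity). The 30 bases that hold this mismatch are shown because it is the only difference over the 345 aligned bases. The differing base is in capitals, and positions are counted from 1 at the 5′ end of the mt-Nd3 transcript. Both are reference transcripts. The bases that CBA/J mice carry at this position were not looked at, and no read was assigned by it. The difference is T3C, with the mt-Nd3 base first.
mt-Nd3: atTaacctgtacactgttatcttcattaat
Gm28438: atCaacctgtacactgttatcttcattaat

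In all, 11 features outside the mt- symbols match a mitochondrial transcript with at least 95% identity over at least 95% of their length, among them Gm28437 with mt-Co3, Gm10925 with mt-Atp6 and Gm28661 with mt-Co2, each without a mismatch. UMIs of such a gene and of its mitochondrial counterpart could not be told apart here. Over barcodes in both files, 7 of these 11 had enough UMIs to compare, and all 7 were higher in the members, with a median log2 ratio of 6.52. Apart from Gm28438, these features had few UMIs at or under the limit and had enough to compare only through the members. Their direction is thus no result, and their UMIs may include reads of the mt- genes that set the choice of members. Gm28438 stood at 7927 CPM (UMIs per 1000000 UMIs outside mt- genes) in the members and at 75.9 CPM at or under the limit, a log2 ratio of 6.71 (6.60 to 6.81). The summed level of the 11 features followed the mitochondrial share over all 8 ranges in the plot of list levels, from 34.5 CPM below 1% to 21817 CPM above 60%.

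Across the other genes the question was which RNAs the members hold that barcodes under the limit do not. UMIs were summed over the barcodes of each group, and a gene was compared when at least 10 UMIs were anticipated in the smaller group. A gene is called higher or lower at a log2 ratio of CPM of at least 1 in size. Of 10797 genes compared over all RNAlater barcodes, 2436 were higher in the members (22.6%) and 3628 lower (33.6%). Over barcodes in both files, 9914 genes were compared, of which 2139 were higher (21.6%) and 3217 lower (32.4%), with a median log2 ratio of -0.34 and quartiles of -1.31 and 0.81. The balance rests on the minimum: without it 5495 genes were higher and 4838 lower over all barcodes, and 5968 and 4384 over barcodes in both files. The values below are from the barcodes in both files unless stated, and the counts of list members are to be read against these shares. The library of origin of these barcodes is not known, so their values describe droplets and not a preservation method.

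mRNAs of the cytoplasm were higher in the members. The list of abundant cytoplasmic mRNAs had 22 of 22 compared members higher, with a median log2 ratio of 2.83 and a summed level of 34243 CPM against 3139 CPM. Fth1, the heavy chain of the iron store ferritin, was at 15378 CPM in the members and 815 CPM under the limit, a log2 ratio of 4.24 (4.20 to 4.28). Ftl1, the light chain, was at 4005 and 309 CPM (3.70). The translation factors Eef1a1 (2352 and 213 CPM, 3.47) and Eef2 (1623 and 141 CPM, 3.53) and Tpt1 (1775 and 137 CPM, 3.69) were also higher. Members only in RNAlater had the same levels within a log2 difference of 0.37 for each of the 23 genes compared, with Fth1 at 16372 CPM.

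Cytosolic ribosomal protein mRNAs were at 11888 CPM in the members and 1384 CPM under the limit. Of 48 compared, 40 were higher and 2 lower, with a median log2 ratio of 3.20. The most abundant were Rpl41 (1432 and 128 CPM, 3.48), Rplp1 (1223 and 103 CPM, 3.57), Rps29 (817 and 65.7 CPM, 3.64) and Rps3 (711 and 55.4 CPM, 3.68). The lower ones, Rps13 with 1 UMI in the members and 120 under the limit and Rpl9 with 5 and 149, were named after their values were seen. Counts of ribosomal protein genes are uncertain wherever reads could be split between a gene and its near-identical copies. Of 86 processed pseudogenes compared, 80 were higher and 4 lower, with a median log2 ratio of 3.56. A pseudogene with few UMIs under the limit could pass the minimum only through the members, and how many did so was not counted. Among the 12 genes with the highest ratios were 4 processed pseudogenes that match an expressed gene: Gm12338 matches Cox7c over 192 bases with 0 mismatches, Gm10169 matches Mif with 3, Rpl39-ps matches Rpl39 with 1, and Gm6265, which GENCODE M21 names Cox6c2, matches Cox6c with 7 over 231 bases. Reads of these genes and of their copies may be split between them.

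The nuclear-encoded subunits of the respiratory chain were higher too. In complex IV, cytochrome c oxidase, all 11 compared were higher, with a median log2 ratio of 3.60 and a summed level of 9310 CPM against 771 CPM. Cox8a was at 2725 and 184 CPM (3.89), Cox6a1 at 1657 and 131 CPM (3.66), Cox6c at 1451 and 88.2 CPM (4.04) and Cox7a2 at 828 and 58.1 CPM (3.83). In complex III 8 of 10 were higher (median 3.30), among them Uqcrh (739 and 78.8 CPM, 3.23) and Uqcr11 (620 and 43.0 CPM, 3.85). In ATP synthase 16 of 18 were higher and 1 lower (median 2.93), with Atp5b, the catalytic beta subunit, at 944 and 133 CPM (2.82). In complex I 29 of 35 were higher (median 2.89), and in complex II, succinate dehydrogenase, 4 of 4 (median 1.68), namely Sdha (1.57), Sdhc (1.80), Sdhb (1.02) and Sdhd (2.46). The alpha subunit of ATP synthase, Atp5a1, had a log2 ratio of 1.85, Atp5f1 2.11 and Atp5c1 0.82, and in complex III Uqcrq had 3.39 and Uqcrc2 0.72. The subunits did not move as a block. In complex I the accessory subunit Ndufb9 had a log2 ratio of 3.50 (799 and 70.7 CPM), while Ndufs4 had -0.38 (137 and 179 CPM), Ndufs1 0.20 and Ndufv2 0.14.

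**Figure D2:**
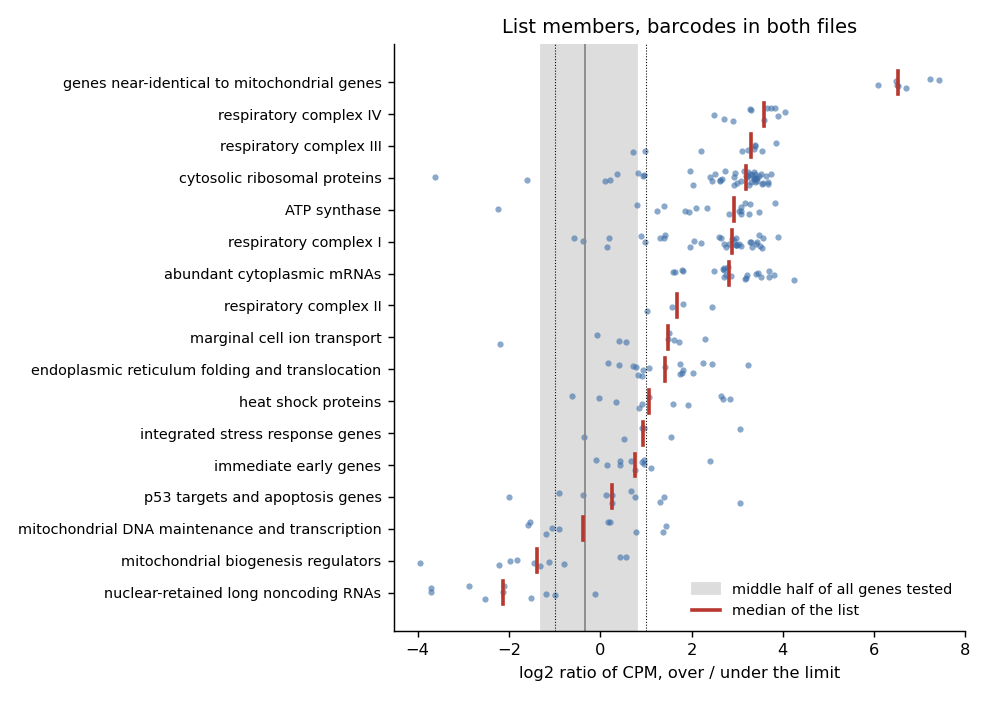
Each point is 1 gene of a list, placed by the log2 ratio of its CPM in members to its CPM at or under the limit, over barcodes in both files; red bars are list medians, the grey band spans the quartiles of all 9914 genes compared, the grey line is their median and dotted lines mark -1 and 1. Respiratory chain, ribosomal protein and abundant cytoplasmic mRNAs lie to the right of the band, nuclear-retained RNAs and biogenesis regulators at or left of it.

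RNAs that stay in the nucleus were lower in the members. Of 10 nuclear-retained long noncoding RNAs compared, 8 were lower and none higher, with a median log2 ratio of -2.12. Malat1 was at 23993 CPM in the members and 103920 CPM under the limit, a log2 ratio of -2.11 (-2.13 to -2.10). Neat1, the scaffold of paraspeckles, was at 698 and 1582 CPM (-1.18). Xist, which coats the inactive X chromosome, was at 162 and 937 CPM (-2.53). Kcnq1ot1, an RNA antisense to Kcnq1, was at 245 and 700 CPM (-1.51), and Firre at 29.7 and 219 CPM (-2.88). The pooled Malat1 value rests on a minority of the members: in those found in both files its share of a barcode's UMIs had a median of 0.541%, with quartiles of 0.354% and 0.888%, whereas under the limit the median was 9.10% with quartiles of 5.72% and 13.9%. Long noncoding RNAs at large moved the same way, with 95 of 131 lincRNAs lower and 17 higher (median -1.94), and 121 of 157 antisense genes lower and 5 higher (median -2.14).

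Regulators of mitochondrial biogenesis were mostly lower in the members. Of the 10 regulators of mitochondrial biogenesis, 7 were lower and none higher (median -1.38). The oestrogen-related receptors Esrrg (26.9 and 415 CPM, -3.95) and Esrrb (323 and 1144 CPM, -1.83), the transcription factor Nrf1 (43.6 and 173 CPM, -1.99) and the coactivator Ppargc1a (192 and 420 CPM, -1.13) were lower, while Esrra had a log2 ratio of 0.57. Esrrb is also one of the marginal markers. In the clusters described below, the regulator list was at 4744 and 5498 CPM in clusters 2 and 4, which are rich in marginal markers. It was at 1252, 392 and 470 CPM in clusters 1, 5 and 6, also mostly under the limit. In clusters 0 and 3, mostly over it, the list was at 887 and 674 CPM. The part of cell composition in the regulator ratios was not tested. Among 10 genes of mitochondrial DNA maintenance and transcription 2 were higher and 4 lower (median -0.37). Tfam, which packages mitochondrial DNA, had 1.37 and Slirp 1.44, while Lrpprc had -1.59, the DNA-binding protein Ssbp1 -1.06, the polymerase Polg 0.16 and Tfb2m 0.22.

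The stress gene lists had smaller medians than the lists of cytoplasmic mRNA. Among immediate early genes 2 of 11 were higher (median 0.77), with Jund at 458 and 86.6 CPM (2.40), Klf4 at a log2 ratio of 0.77, Mcl1 at 0.92 and Dusp1 at -0.08. Among heat shock proteins 6 of 11 were higher (median 1.07): the cytosolic chaperones Hsp90ab1 (1999 and 310 CPM, 2.69) and Hspa8 (282 and 45.0 CPM, 2.65) passed, whereas the stress-induced Hsp90aa1 had 0.85 and Bag3 -0.63. Of 11 p53 targets and apoptosis genes 3 were higher and 1 lower (median 0.27), with Cdkn1a at 1.40, Bcl2l1 at 0.27, Mdm2 at 0.26 and Trp53inp1 at -0.38. Of 6 integrated stress response genes 2 were higher (median 0.93), Atf4 (1.55) and Atf5 (3.05), while Ddit3 had -0.36 and Ddit4 0.52. Among genes of folding and translocation in the endoplasmic reticulum 10 of 17 were higher (median 1.41), with Canx at 1.75, Hsp90b1 at 1.80, Calr at 2.25 and Pdia3 at 1.06.

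The largest ratios in either direction belonged to these genes. The 12 highest among genes with at least 50 UMIs anticipated were, beside Fth1, Cox6c, Cox8a, Uqcr11, Gm28438 and the 4 processed pseudogenes, Ifi27l2a (1540 and 86.5 CPM, 4.15), the muscle-type cytochrome oxidase subunit Cox8b (642 and 38.3 CPM, 4.07) and the mitochondrial protein Chchd10 (1483 and 98.7 CPM, 3.91). The 12 lowest were Zfp600 (1 and 697 UMIs, -6.16), Mettl24 (1 and 675, -6.11), Gm38048 (8 and 2451, -4.97), the netrin receptor Unc5c (16 and 3906, -4.65), Il1rapl2 (3 and 617, -4.40), Gm10863 (50 and 10211, -4.39), RP24-229D22.1 (6 and 1223, -4.39), 4932411E22Rik, the contactin Cntn4 (8 and 1557, -4.32), A530020G20Rik (5 and 940, -4.27), Gm36975 (3 and 549, -4.23) and Pid1 (10 and 1819, -4.22). The values for Zfp600 and Mettl24 rest on 1 UMI in the members and reach from -11.47 to -3.68 and from -11.42 to -3.63. 4932411E22Rik had 0 UMIs in the members and 605 under the limit, and its log2 ratio is at most -4.37 with 3 counts set for the 0. Over all RNAlater barcodes the 12 lowest genes also took in Wdr17 (1 and 492 UMIs, -6.10), Sorbs2os (1 and 457, -5.99), Gm37795 (1 and 411, -5.84), Cdh6 (2 and 447, -4.96) and Rapgef4os1 (2 and 443, -4.95). Several of the lowest genes had many of their UMIs in 1 of the clusters described below, each with few or no members. RP24-229D22.1 had 1224 UMIs in cluster 1, Il1rapl2 481 in cluster 12, Cdh6 317 in cluster 15 and Pid1 745 in cluster 9. The part of cell composition in these ratios was not tested.

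Gene length on the genome, introns included, followed the ratio across genes. When the 9903 genes with a length were put in 5 groups of nearly equal size, the group of the shortest genes, up to 11709 bases, had a median log2 ratio of 1.24, with 1103 of 1981 higher and 207 lower. In the next groups it was 0.16, -0.27 and -0.71, and in the group of the longest genes, from 94186 bases upward, it was -1.42, with 46 higher and 1293 lower of 1981. Spearman's rho between length and log2 ratio was -0.54 over these genes, -0.31 with the length of the exons and -0.30 with the number of exons. These are descriptions across genes of 1 library, which are not independent replicates. Of 193 genes with a single exon, 146 were higher (median 2.72). They take in Gm28438 and processed pseudogenes such as Gm12338, so the limits given for those apply to this count too. Counted by UMI, genes over 100 kb gave 19.9% of the members' UMIs and 40.7% of those under the limit, and genes of up to 10 kb gave 28.9% and 17.0%. Whether reads in introns were counted is not given in the sources used here, so spliced and unspliced RNA cannot be told apart in these tables.

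**Figure D3:**
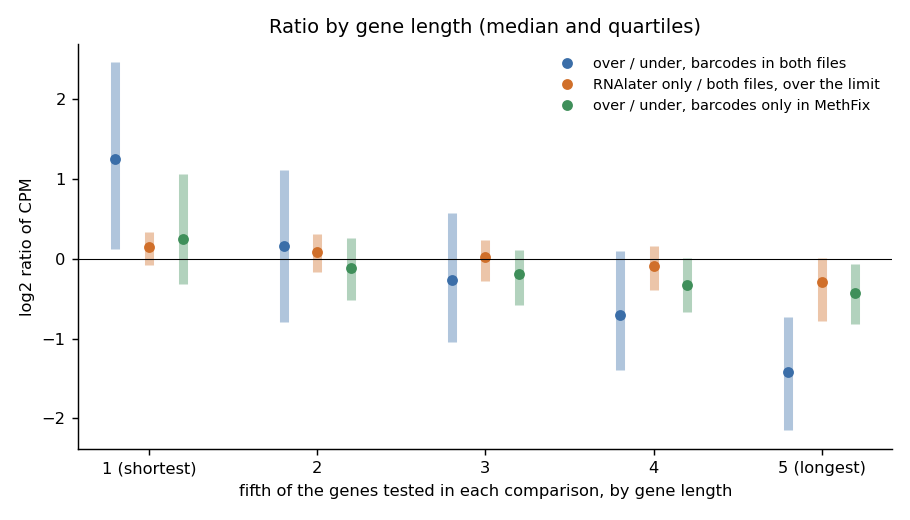
Points are median log2 ratios of CPM and bars their quartiles in 5 groups of genes of nearly equal size by gene length, for members against barcodes at or under the limit in both files, for members only in RNAlater against members in both files, and for MethFix-only barcodes over against under the limit. The first falls from 1.24 to -1.42, the second from 0.14 to -0.29 and the third from 0.24 to -0.44.

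The lists changed along the mitochondrial share and not at the limit alone. The abundant cytoplasmic list was at 2239 CPM in barcodes below 1% and at 3954, 6207 and 11060 CPM in the ranges from 1 to 2, 2 to 5 and 5 to 10%. It was at 18551 CPM from 10 to 20%, 33943 from 20 to 40%, 41263 from 40 to 60% and 41606 CPM above 60%. Nuclear-retained RNAs stayed between 99991 and 110840 CPM up to 10%. They were at 68128 CPM from 10 to 20% and then at 12595, 6843 and 11252 CPM. Cytoplasmic RNA was thus already higher in barcodes that the limit keeps, while the pooled level of nuclear-retained RNA was lowest above 20%. Taken barcode by barcode, most of the 98 barcodes from 10 to 20% were already poor in Malat1. Its share of their UMIs outside mt- genes had a median of 0.892%, with quartiles of 0.310% and 8.23%. In the members above 20% the median was 0.664%. Cell type markers moved along the same ranges. From below 1% to the range from 5 to 10%, basal markers went from 702 to 3149 CPM and fibrocyte markers from 797 to 3403 CPM, while intermediate markers went from 10540 to 3468 CPM and marginal markers from 9103 to 5596 CPM. From 40 to 60% these lists stood at 358, 1057, 21278 and 8657 CPM. The part of this change of markers in the other lists was not tested. The complex IV list had 626 CPM below 1%, 1908 from 5 to 10% and 12653 CPM above 60%.

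**Figure D4:**
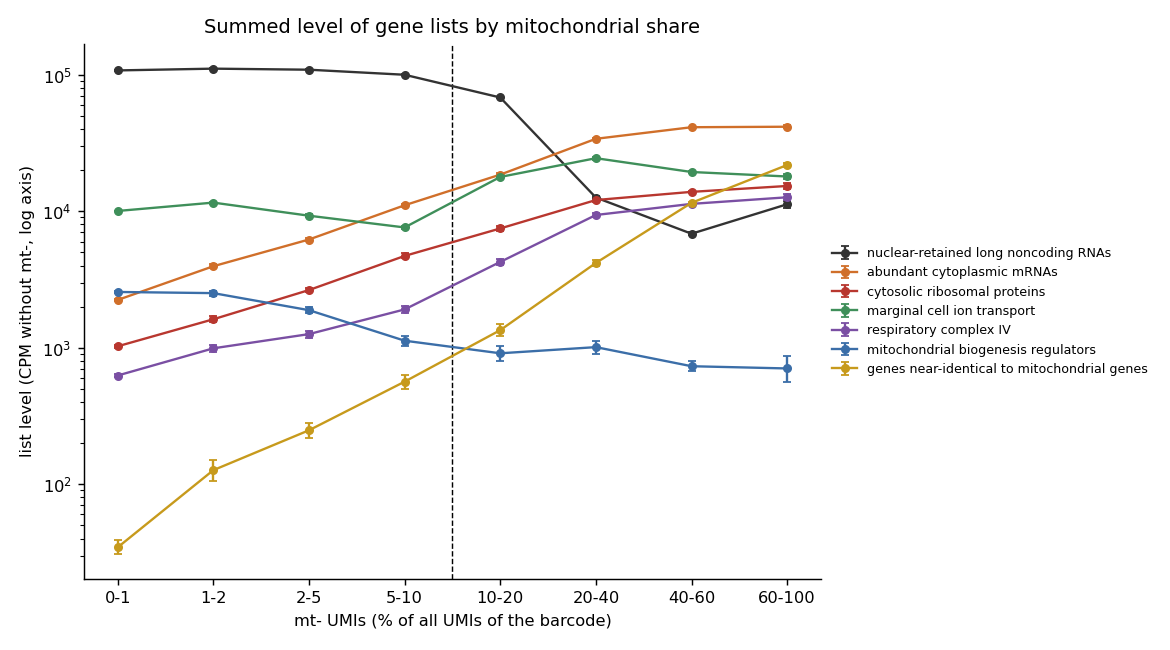
Lines give the summed CPM of 7 gene lists, on a log axis, in 8 ranges of the mitochondrial share of RNAlater barcodes, with exact 95% counting intervals; the dashed line is the 10% limit. Cytoplasmic, ribosomal protein and complex IV lists are higher from range to range. The summed nuclear-retained RNAs are flat up to 10%, lower from 10 to 20% and lowest above 20%.

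Genes of the marginal cell's ion transport differed among themselves. The potassium channel's accessory subunit Kcne1 was at 1455 CPM in the members and 297 CPM under the limit (2.29), whereas its pore subunit Kcnq1 was at 281 and 1292 CPM (-2.20). Kcnq1 is the longer gene of the pair. The Na,K-ATPase beta subunits Atp1b1 (3002 and 912 CPM, 1.72), Atp1b2 (1181 and 421 CPM, 1.49) and Atp1b3 (931 and 302 CPM, 1.62) were higher. Slc12a2, which brings in sodium, potassium and chloride, had 6045 and 4552 CPM (0.41), and Bsnd had -0.07. In all 5 of 9 were higher and 1 lower (median 1.49).

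Markers of several cell types were found together in the members. Of the 8 compared intermediate cell markers 5 were higher and 1 lower. The melanin enzyme Dct was at 12622 and 5654 CPM (1.16), Gpnmb at 1322 and 421 CPM (1.65) and Mlana at 292 and 28.1 CPM (3.38), while the melanin enzyme Tyr was at 570 and 1442 CPM (-1.34), the transcription factor Mitf at 425 and 732 CPM (-0.78) and Met at 755 and 881 CPM (-0.22). Pmel, Oca2 and Tyrp1 had 0 UMIs in the members and 6, 32 and 3 under the limit. The summed list was at 16746 CPM and 9480 CPM. Of 8 marginal cell markers 2 were higher and 4 lower, the latter the transcription factors Esrrb (-1.83) and Lmx1a (-2.48), Wnk2 (-1.66) and Kcnq1, and the summed list was at 9631 and 8931 CPM. Of 7 basal markers none was higher and 1 lower: Cldn11 was at 424 and 332 CPM (0.35), Fat2 at 198 and 218 CPM (-0.14), Cacna1e at -0.41 and Sorcs3 at -2.21.

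Most members held RNA of both melanocyte and marginal lists. After thinning to 500 UMIs, 810 of 1018 members had at least 2 UMIs of each list (79.6%, 77.0 to 82.0%), against 292 of 2329 barcodes under the limit (12.5%, 11.2 to 14.0%). The shares were close in members in both files (78.3%) and in those only in RNAlater (81.7%). A single gene gave most UMIs of each list. Before thinning, Dct gave 18822 of the members' 24868 intermediate UMIs, and Slc12a2 gave 9354 of their 15028 marginal UMIs. Under the limit Dct gave 59407 of 99599 and Slc12a2 47845 of 93877. At least 1 intermediate UMI was seen in 96.5% of members at this depth. In clusters 2 and 4, groups of barcodes under the limit that are rich in marginal markers and should lack melanocyte RNA, that share was 32.2% and 32.4% after the same thinning. Before thinning their medians were 5965 and 6187 UMIs outside mt- genes, against 982 in the members, so these shares do not give the share that free RNA would reach in shallow barcodes. The 36 barcodes under the limit only in RNAlater had a median of 558 such UMIs. Of these, 72.2% (54.8 to 85.8%) had an intermediate UMI and 25% had at least 2 UMIs of each list. In cluster 1, mostly under the limit and rich in intermediate markers, 69.6% had a marginal UMI and 31.7% had at least 2 of each list. The part of free RNA in the members was not tested.

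Markers of the rarer classes were mostly lower or too few to compare. Of Reissner's membrane markers 3 of 3 were lower (99.3 and 746 CPM summed), with Meis1 at -3.14 and Slc26a7 at -2.16. Of spindle and root cell markers 3 of 5 were lower and none higher (105 and 357 CPM), with Slc26a4, the anion exchanger pendrin, at 7 and 1076 UMIs (-3.98) and Dpp10 at -1.83. Of fibrocyte markers 1 of 7 was higher and 1 lower (1438 and 1099 CPM). Endothelial markers were lower in 2 of 2 (24.1 and 62.0 CPM), and so were pericyte markers in 2 of 2 (13.9 and 33.0 CPM). Bone markers were higher in 3 of 4 and lower in 1 (198 and 91.1 CPM). Their UMIs were unevenly spread: over all members, 130 of 256 lay in the 98 barcodes from 10 to 20%. In members only in RNAlater the bone list was at 110 CPM. Cluster 19, of 9 barcodes, had bone markers at 15585 CPM and held 1 member, which was in both files. How many of the members' bone UMIs came from this barcode was not counted. Schwann cell markers were higher in 2 of 3 (771 and 294 CPM), with Pmp22 at 1.38 and Mbp at -0.08. Red blood cell markers had 1 gene compared and none called (41.8 and 19.7 CPM), as had neuron markers (83.5 and 62.8 CPM). No macrophage (23.2 and 28.5 CPM), B cell (2.78 and 1.90 CPM) or neutrophil marker (2.78 and 2.19 CPM) had enough UMIs.

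When the 3486 RNAlater barcodes were clustered without mt- genes and without the 16 gene lists, members and other barcodes fell largely into different clusters. The genes near-identical to mitochondrial genes were not left out. They stood at 12013.5 CPM in cluster 0 and 9974 CPM in cluster 3, against 66.7 CPM in cluster 1. Mitochondrial reads could therefore enter the clustering through these genes, and their part in it was not tested. Of 21 clusters, 5 were mostly over the limit, and these held 1104 members (95.4%) and 23 other barcodes. Cluster 0 had 646 members of 653 barcodes and a median of 718 UMIs outside mt- genes, and cluster 3 had 328 of 329 and a median of 1520. Clusters 10 (57 of 63), 13 (52 of 57) and 16 (21 of 25) were small. No cluster is named as a cell type, and leading genes, ranked by fold with 10 CPM added, define a cluster and are no finding about it. Clusters 0 and 3 had both the intermediate markers (18945 and 22687 CPM) and the marginal markers (9529 and 8338 CPM) high, next to 31698 and 2507 CPM in cluster 1 and 895 and 19643 CPM in cluster 2, which are clusters under the limit.

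The small clusters had other leading genes. Cluster 13 was led by Spp1 (osteopontin, 32627 CPM against 1660 CPM in all other barcodes), Wfdc18 (431 and 13.7 CPM), Dnase1 (17242 and 1125 CPM) and Abca2 (3788 and 283 CPM). Psap, Cd81, Cldn9 (1011 and 76.8 CPM) and Cldn3 (332 and 20.6 CPM) came next. This cluster had 38620 CPM of marginal markers and 2180 CPM of intermediate ones. Cluster 10 was led by the lipid enzyme Scd1 (2895 and 136 CPM), Fam101b, Ahnak and Nbl1, with fibrocyte markers at 6345 CPM and intermediate markers at 12602 CPM. Cluster 16 was led by the neuronal genes Pcsk1n (2161 and 1.51 CPM), Uchl1 (1621 and 0.920 CPM), Snap25 (1790 and 3.34 CPM), Gap43 (1283 and 0.753 CPM) and Nefl (1013 and 0.836 CPM), and its 21 members had a lower mitochondrial share, with a cluster median of 13.9%. In all 5, nuclear-retained RNAs were at 4673 to 11618 CPM, against 36180 to 167642 CPM in the other 16.

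**Figure D5:**
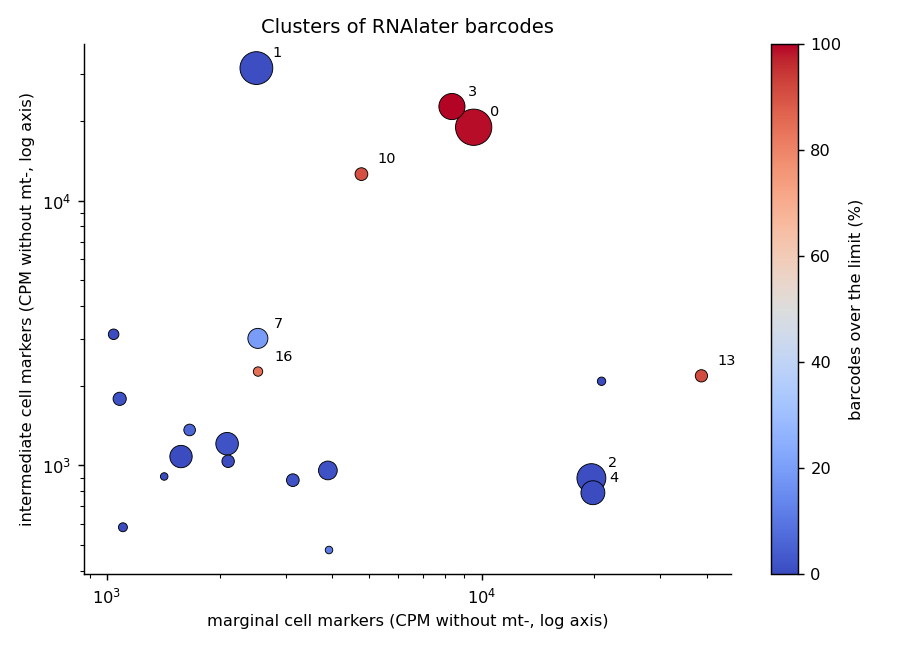
Each circle is 1 of 21 clusters, placed by the summed CPM of marginal markers and of intermediate markers on log axes, with an area that grows with the number of barcodes and a colour for the percent over the limit. Clusters 0 and 3, mostly over the limit, are high in both lists. Of the other clusters mostly over it, 10 is high in intermediate markers, 13 is highest in marginal markers and 16 is high in neither. The large clusters under the limit are high in 1 list or neither.

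Cluster 7 was the only one with at least 20 barcodes on each side of the limit, 36 over and 149 at or under. Its members had a median share of 14.2% and a depth of 4277.5 UMIs outside mt- genes, close to the 4415 of the others. Inside it, 49 of 2900 genes were higher and 85 lower, with a median log2 ratio of -0.04. Abundant cytoplasmic mRNAs were at 15594 and 9997 CPM, with 1 of 22 genes higher and a median of 0.40, ribosomal protein mRNAs at 6326 and 4207 CPM (1 of 21 higher, median 0.63) and complex IV at 2475 and 1500 CPM (2 of 9 higher, median 0.77). Nuclear-retained RNAs were at 113330 and 123499 CPM with none of 7 called. A barcode over the limit was thus not always poor in nuclear RNA. Scrublet, a caller of doublets, marked 13 of the 185 barcodes of this cluster, and 45 of the 3486 in all.

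Members only in the RNAlater file and members in both files had nearly the same profile apart from nuclear RNA, some basal markers and some long genes. Of 6333 genes compared, 32 were higher (0.505%) and 402 lower (6.35%) in those only in RNAlater, and the median log2 ratio was -0.01. In the group of the longest genes, from 94724 bases upward, 235 of 1266 were lower and 1 higher. In the group of the shortest, up to 9800 bases, 13 of 1266 were lower and 13 higher. Ribosomal protein mRNAs had a median of 0.17 with none of 45 called, complex IV 0.17 with none of 11 and abundant cytoplasmic mRNAs 0.17 with none of 23. Of 6 nuclear-retained RNAs compared 5 were lower: Malat1 was at 8526 and 23993 CPM (-1.49), Neat1 at 277 and 698 CPM (-1.34) and Kcnq1ot1 at 28.2 and 245 CPM (-3.12). The basal markers Cacna1e (-2.89) and Fat2 (-1.41) were lower as well, with 3 of 6 lower in that list. Both genes, and Gm12153, are leading genes of clusters 5 and 7. Cluster 7 held 33 members in both files and 3 only in RNAlater, and its members had nuclear-retained RNAs at 113330 CPM. The part of cluster 7 in these differences was not tested. The largest differences with at least 50 UMIs anticipated were Kirrel3 (15.4 and 223 CPM, -3.86), Gm12153 (28.2 and 343 CPM, -3.61), Kcnq1ot1, Klf12 (-2.93), Gm26917 (-2.54), Cemip (-2.53), Wwox (-2.49), Sorbs3 (-2.35), Arl15 (-2.31), Mllt3 (-2.19), Prkca (-2.18) and 2610203C20Rik (-2.13).

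This difference in nuclear RNA rested on the members with the lowest mitochondrial shares. With the limit at 20% the log2 ratio of Malat1 was 0.09 and that of Xist 0.25, the median of the nuclear-retained list was 0.0002 over 4 genes, and 91 genes were lower instead of 402. Between 10 and 20% lay 76 of the 656 members in both files (11.6%) and 22 of the 501 only in RNAlater (4.39%). Taken barcode by barcode, Malat1 was 0.881% of UMIs at the median in members only in RNAlater and 0.541% in members in both files, the opposite order to the pooled values. On the higher side no gene with 50 UMIs anticipated reached a log2 ratio of 1. The largest were Aktip (0.82), Ppdpf (0.82), Acadm (0.76), Slc6a8 (0.75), Aagab (0.72), Mir6236 (0.69), BC003331 (0.68), Ptprf (0.65), Cdkn1a (0.63), Epcam (0.61), Rack1 (0.59) and Cldn9 (0.58).

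Within barcodes only in RNAlater, the group at or under the limit was small, 36 barcodes with 21413 UMIs outside mt- genes, so that 283 genes could be compared. Of these, 218 were higher in the members (77%) and 9 lower (3.18%). With so few UMIs in the other group, most genes could pass the minimum only through the members, where they had to be high, so no list is described here. Malat1 was at 8526 and 53612 CPM, a log2 ratio of -2.65.

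The MethFix file holds barcodes that RNAlater lacks, and so gives a comparison in barcodes that did not enter the ones above. Its 69 barcodes over the limit had a median mitochondrial share of 13.5%, far under that of the RNAlater members, and 1644 UMIs outside mt- genes, against 1.48% and 2318 in 1157 at or under. Of 2734 genes compared, 181 were higher (6.62%) and 271 lower (9.91%), and with TMM factors in place of totals 153 were higher and 636 lower. With the limit at 5% the balance turned, with 507 of 7865 genes higher and 119 lower. TMM moved the median of all genes here from -0.20 to -0.46, and by under 0.1 in the RNAlater comparisons. Abundant cytoplasmic mRNAs were higher in 12 of 12 (median 2.63; 17544 and 2714 CPM), complex IV in 5 of 5 (2.70), ATP synthase in 6 of 7 (2.36), complex III in 3 of 3 (2.88) and ribosomal protein mRNAs in 2 of 2 (2.91). With so few UMIs over the limit, genes such as Uqcr11 (96 and 165 UMIs) passed the minimum only through that group, where they had to be high. The counts of these lists were thus in part set by the minimum. Biogenesis regulators were lower in 3 of 4 (-1.20). Of 7 nuclear-retained RNAs 1 was lower (-0.51), with the list at 143375 and 208879 CPM. Of the 181 genes higher here, 156 were also higher in the RNAlater barcodes in both files, 86.2% of the former and 51.8% of the 301 higher in the latter over the same genes. Of the 271 lower here, 216 were lower there, 79.7% of the former and 17.6% of 1225. These overlaps are to be read against the shares over all 2734 genes. Of these genes, 301 were higher and 1225 lower there, and 6.62% were higher and 9.91% lower here. Spearman's rho over the 2734 genes was 0.60, as a description across genes.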

How the data were processed

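The authors deposited the UMI counts of each library as a sparse matrix of features by barcodes, made with Cell Ranger 3.0.1 on GRCm38 per the labels. Whether introns were counted is not given in the sources used here. From these counts, RNAlater barcodes with at least 200 genes and at most 8000 UMIs were divided at 10% of UMIs on mt- symbols. UMIs were summed per group, mt- UMIs left out, and scaled to CPM. A gene was compared when at least 10 UMIs were anticipated in the smaller group with equal levels, and called at a log2 ratio of at least 1 in size. A count of 0 was set to 3 counts, which gives a bound. With 1 library per group no test was run. Intervals are exact at 95% and cover no spread between mice or libraries. They hold UMI counting error for levels and ratios, and are taken over barcodes or genes for shares and medians. Of 48816 features, 48349 matched GENCODE M21 by identifier without its version, and transcripts were aligned with blastn 2.17.0. Clusters came from Leiden at a resolution of 1.5 in scanpy 1.11.5, without mt- genes and the 16 gene lists. Genes near-identical to mitochondrial genes were not left out of the clustering. Doublets were marked with Scrublet and kept, except in 1 alternative.

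Genes were named by rule: the 4 members of each list with the most UMIs, and the 12 with the largest ratio in each direction among those with at least 50 UMIs anticipated, for all barcodes, for those in both files and for RNAlater-only against shared barcodes over the limit. Some genes of this rule are not reported here, among them those that the comparison over all barcodes adds on the higher side. Other list members are named as examples, chosen after their values were seen. The barcode groups, lists and rules were chosen with earlier results of these data known. Alternatives were TMM factors (edgeR 4.0.16), DESeq2 1.42.0 size factors, other filters, limits of 5 and 20%, equal weight per barcode, thinning to 500 UMIs, no upper UMI limit, no doublets and no near-identical genes. The ratios and intervals were tested on simulated data with known folds.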

Additional observations from a re-analysis of the deposited data

How the results depend on the processing

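No paired analysis was possible because each preservation method has 1 library. In both RNAlater comparisons of over against under the limit, each list median kept its direction under each alternative run, except that of mitochondrial DNA maintenance over all barcodes, which was 0.67 thinned. Of the alternatives' list medians, 194 of 203 over all barcodes and 199 of 203 over barcodes in both files stayed inside the interval of the main median, and for the members only in RNAlater against those in both files 162 of 202 did. Other scalings moved no list median in the RNAlater comparisons outside its interval.

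Without a filter on low counts 5495 genes were higher and 4838 lower over all barcodes (53.2% of calls higher, against 40.2% with it) and 5968 and 4384 over barcodes in both files (57.7% against 39.9%); with 50 UMIs anticipated, 1109 were higher and 2058 lower, and 744 higher and 1698 lower. The list medians that moved over all barcodes were ribosomal proteins at 2.52 without a filter and 3.44 with 50 anticipated, abundant cytoplasmic mRNAs at 2.60 and near-identical genes at 6.05 without the limit of 8000 UMIs, nuclear-retained RNAs at -3.76 with the limit at 20%, -3.37 with equal weight and -3.16 thinned, and stress response genes at 1.99 and near-identical genes at 6.12 thinned. Over barcodes in both files they were ribosomal proteins at 2.50 and 3.45 under the filters, and abundant cytoplasmic mRNAs at 2.51 and near-identical genes at 6.01 without the limit of 8000. The difference in genes at equal depth was 14 at 300 UMIs, against 22 at 500.

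The values of members only in RNAlater against those in both files moved more often. Higher counts were 687 without a filter, 0 with 50 anticipated, 65 with the limit at 5% and 51 with equal weight. Lower counts were 1316, 37, 990 and 240 under the same settings, 91 with the limit at 20%, 114 thinned and 730 without the limit of 8000. With the limit at 20% the nuclear-retained median was 0.0002, Malat1 0.090 and Xist 0.25, all reversed. The cause was not tested. Further list medians of this comparison moved as follows. With the limit at 5% ribosomal proteins were at 0.44, complex I at 0.54, II at 0.25, III at 0.36 and IV at 0.57, ATP synthase at 0.50, cytoplasmic mRNAs at 0.48, heat shock proteins at 0.40, endoplasmic reticulum genes at 0.36 and near-identical genes at 0.47. With it at 20% ribosomal proteins were at 0.0064, complex I at 0.027, II at -0.23 and IV at 0.020, ATP synthase at -0.054, cytoplasmic mRNAs at 0.041, stress response and mitochondrial DNA genes at 0.14 and near-identical genes at -0.26. With equal weight ribosomal proteins were at 0.051, complex I at 0.052, ATP synthase at -0.005, nuclear-retained RNAs at -0.46, stress response genes at 0.10 and mitochondrial DNA genes at 0.035. Thinned, ribosomal proteins were at -0.085, complex I at 0.033, IV at 0.024, cytoplasmic mRNAs at 0.030, mitochondrial DNA genes at 0.040 and near-identical genes at -0.30. Without the limit of 8000 ribosomal proteins were at 0.32, complex I at 0.38, IV at 0.40, ATP synthase at 0.35, cytoplasmic mRNAs at 0.36 and near-identical genes at 0.20. Without a filter stress response genes were at 0.14 and mitochondrial DNA genes at 0.072. In barcodes only in MethFix, 507 genes were higher and 119 lower with the limit at 5%, and 636 were lower with TMM factors.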
